A study of Mus musculus with 39 samples.

Results

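The livers of 28 mice on a Western diet were ranked by the transcript level of Cidec, a protein of the lipid droplet surface, and the 9 highest were compared with the 9 lowest across all other genes. Both groups were thus chosen by measured Cidec values, which are given as a description with no test of the groups' difference. The 28 are all Western diet libraries of the series except 2 (knockout M and wildtype A), out of 39 livers in all. Ranking was by CPM, the raw count of a gene scaled by the total count of its library. The study fed male mice of the C57BL/6NTac strain, either CD163 knockouts (CD163tm1(KOMP)Vlcg) or their wildtype littermates, bred from heterozygous parents, and gave them from 6 weeks of age either a Western diet plus fructose-supplemented water or chow and plain water, for 8 weeks. All 28 ranked mice therefore shared sex, strain, age and diet, and 14 were wildtype and 14 lacked Cd163, the haemoglobin scavenger receptor of macrophages, in all tissues. Each library came from snap-frozen liver of 1 mouse.

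Cidec belongs to the CIDE family of lipid droplet proteins, which sit where droplets touch and pass lipid from the smaller to the larger one, so that droplets grow and lipolysis slows. In healthy liver the gene is expressed at a low level, and in fatty liver it is induced together with its relatives and with genes of the fat cell programme, under the nuclear receptor PPARG among others. Its transcript is often read as a marker of steatosis. No histology, triglyceride content or body weight was analysed here, so the groups are ranks of 1 measured transcript, and every test below asks which other transcripts were associated with it among mice of the same diet. It is not a test of a treatment. Nor can a whole-liver library tell apart fewer cells of a type and less RNA per cell.

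Cidec spanned 4.27 to 105 CPM. The high group ran from 37.6 to 105 CPM (median 58.3), on 608 to 3209 counts, and held 6 knockout and 3 wildtype livers. The low group ran from 4.27 to 14.3 CPM (median 9.84), on 63 to 217 counts, and held 2 knockout and 7 wildtype livers. The 10 livers between them lay at 14.7 to 30.2 CPM. At the upper border knockout C, the last of the high group, was at 37.6 CPM and knockout A, the next in rank, at 30.2 CPM. At the lower border wildtype N, the first of the low group, was at 14.3 CPM and wildtype J, just above it, at 14.7 CPM, so that the lower border separated livers that did not differ beyond counting error. The 14 knockout livers had a mean of 42.2 ± 33.9 CPM (SD) and the 14 wildtype livers one of 21.6 ± 17.1 CPM (SD). The difference of 0.89 in mean log2 CPM did not pass a two-sided permutation test with 100000 resamples (p = 0.0601). Since the genotypes were unevenly divided over the groups, genotype was a covariate in the comparison of genes between the groups.

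**Figure D1:**
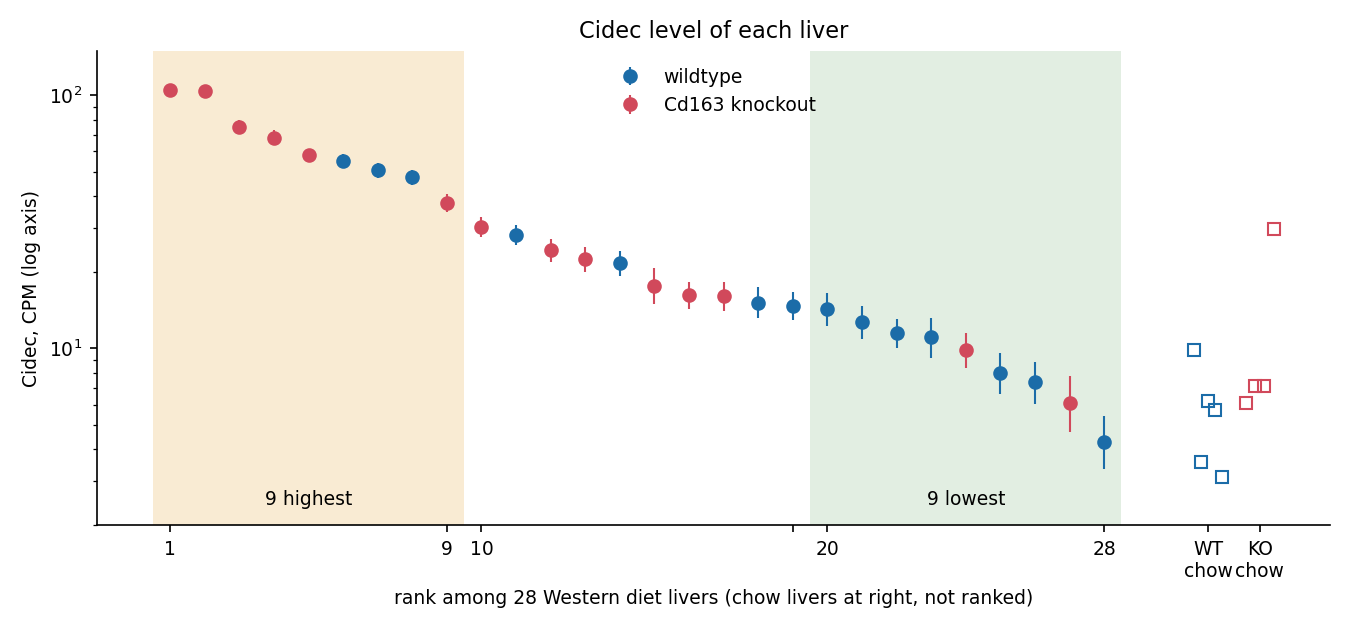
Cidec CPM (log axis) of each of the 28 ranked Western diet livers, with exact Poisson intervals (95%, counting error only), and of the 9 chow livers at the right as open squares. The 9 high livers (orange band) lie at 37.6 CPM or more and the 9 low livers (green band) at 14.3 CPM or less, and 1 knockout chow library sits at 29.7 CPM.

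Some libraries stood apart before any comparison. On a scale made of the 532 genes with a called diet difference of at least 2-fold, with the mean of 7 chow libraries at 0 and that of the 28 ranked livers at 1, the libraries labelled knockout Western M and wildtype Western A lay at 0.147 and 0.208, and those labelled wildtype chow A and knockout chow D at 0.929 and 0.990. The first pair was outside the ranking, and chow ranges are given for all 9 chow libraries, as labelled. The low Cidec livers lay at 0.837 to 1.05 (median 0.897), against 0.898 to 1.25 (median 1.05) for the high livers, and the ranges overlapped. Of the 532 genes 41 were also called between the Cidec groups, so the scale is not independent of them. Knockout Western F had the highest Cidec level and the largest library, 30438808 counts against 10329415 to 18909180 in the low group. It also had the highest mean level of 28 for the macrophage, Kupffer cell, stellate cell and endothelial lists. Wildtype Western G, L, M and N, all in the low group, had a mean acute phase level of 8.75 to 10.0 (log2 CPM over 26 genes), above all other livers of both groups (6.83 to 7.98). Library totals did not differ between the groups past the threshold (difference of 0.30 in mean log2 total, exact two-sided permutation p = 0.0743). Cd163 was at 0.652 CPM or less in each of the 14 knockout livers and at 2.54 to 15.0 CPM in the wildtype livers.

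Of 13906 genes tested, 303 (2.18%) differed between the high and the low Cidec livers in edgeR's quasi-likelihood test with genotype as a covariate and Benjamini-Hochberg adjustment over all genes (adjusted p under 0.05). In the high livers 205 genes (1.47%) rose and 98 (0.705%) fell, of which 74 rises and 25 falls were at least 2-fold. For 51 genes (0.367%) the 9 high and the 9 low livers did not overlap at all, 41 of them higher (0.295%) and 10 lower (0.0719%). The median log2 fold change of all genes was -0.01. The count moved with the livers in the fit. Without wildtype G, L, M and N, 54 genes passed, 48 of them among the 303. That fit also holds fewer low livers, and leaving out as many other livers was not tried. The part of the acute phase in this drop was therefore not tested. With the acute phase mean as a further covariate 185 passed, 160 of them shared. Leaving out 1 liver moved the count by over 1.5 times in 8 of 18 cases. The count fell to 83 without wildtype O, 104 without H and 127 without B, the only wildtype livers of the high group. Without wildtype L or M, each left out alone, it was 155 and 158. It was 484 without knockout F, 508 without C and 666 without D. Without wildtype G it was 212 and without wildtype N 383. Of 47 called genes named here and followed through these fits, 24 passed whichever liver was left out, 20 without wildtype G, L, M and N, and 34 with the acute phase covariate.

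The largest rise among the named genes was that of a lipid droplet gene. Of 23 tested members of the list of droplet coat proteins and lipase regulators, 5 rose, none fell and 18 did not pass, against 2.18% of all genes passing, with a median log2 fold change of 0.35. Without wildtype G, L, M and N 1 of the 23 passed, against 0.375% of all genes in that fit. Without L and M it was likewise 1 of the 23, against 0.677% of all genes. Cidea, the close relative of Cidec that is typical of brown fat and appears in steatotic hepatocytes, was at 2.46 to 125 CPM (median 20.3) in the high and 0 to 2.01 CPM (median 0.181) in the low livers. The groups did not overlap, and the log2 fold change was 5.37 ± 1.01 (SE, adjusted p = 0.0139). Without the 4 acute phase livers it was of like size but no longer passed (5.19, adjusted p = 0.139). The low median of Cidea lay under the filter on low counts, so its entry into the test rested on the high livers. In knockout F, the liver of highest Cidec, Cidea was the lowest of the high group at 2.46 CPM.

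Plin4, a perilipin that covers nascent droplets of fat cells and muscle, was at 39.4 to 146 CPM (median 95.1) in the high and 8.43 to 63.5 CPM (median 18.3) in the low livers. It rose by 2.03 ± 0.37 (SE, adjusted p = 0.0108) on the log2 scale and passed in all 18 fits that left out 1 liver. Fitm1, which partitions triglyceride into droplets, rose by 1.19 ± 0.27 (SE, adjusted p = 0.0327) and Mest, a protein linked to fat cell size, by 0.81 ± 0.20 (SE, adjusted p = 0.0421). Plin2, the main droplet coat protein of hepatocytes and abundant in every liver, was at 825 to 1093 CPM (median 913) in the high and 425.1 to 943 CPM (median 511) in the low livers, a rise of only 0.59 ± 0.15 (SE, adjusted p = 0.0421). It passed in 6 of those 18 fits, and 1 low liver reached the range of the high group.

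The other members of the list did not pass. Fitm2 had a log2 fold change of 0.59, adjusted p = 0.0574 and G0s2, an inhibitor of the main triglyceride lipase, one of 1.29, adjusted p = 0.0872. Plin5 (0.27, adjusted p = 0.128), Cideb (0.15, adjusted p = 0.318), Pnpla2, the lipase itself (0.18, adjusted p = 0.305), its activator Abhd5 (-0.18, adjusted p = 0.535) and Plin3 (-0.02, adjusted p = 0.940) did not pass. Among the 3 CIDE genes, next to the ranking gene Cidec, Cidea differed by more than 5 log2 units and Cideb, the CIDE protein of the normal hepatocyte, was at 79.1 CPM against 71.8 CPM (medians).

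Of 15 tested genes of the PPARG programme 6 rose and none fell, against 2.18% of all genes passing, with a median log2 fold change of 0.60. Pparg itself, the nuclear receptor that drives fat cell differentiation, was at 13.9 to 27.3 CPM (median 22.3) in the high and 3.98 to 16.5 CPM (median 9.57) in the low livers. The ranges overlapped at their edges and the log2 fold change was 1.13 ± 0.28 (SE, adjusted p = 0.0473), a call that held in 7 of the 18 fits without 1 liver. Cd36, the fatty acid translocase of the cell surface, was at 117 to 193 CPM (median 156) in the high and 14.2 to 84.3 CPM (median 34.0) in the low livers. No high liver fell into the low range, and the rise of 2.01 ± 0.31 (SE, adjusted p = 0.00383) passed in each of the 18 fits and without the 4 acute phase livers (adjusted p = 0.0154). Mogat1, which makes diacylglycerol from monoacylglycerol, was at 3.97 to 15.7 CPM (median 7.75) against 0.216 to 3.74 CPM (median 1.45), also without overlap, and rose by 2.51 ± 0.44 (SE, adjusted p = 0.00795).

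Vldlr, a receptor for triglyceride-rich lipoproteins, was low throughout, at 0.647 to 6.82 CPM (median 3.52) in the high and 0.0907 to 1.87 CPM (median 0.212) in the low livers. It rose by 2.70 ± 0.54 (SE, adjusted p = 0.0151), with overlapping ranges. Its low median lay under the filter on low counts, so its entry into the test rested on the high livers. Fabp4, the fatty acid binding protein of fat cells and macrophages, rose by 1.04 ± 0.21 (SE, adjusted p = 0.0156) and Acaa1b, a peroxisomal thiolase, by 0.88 ± 0.20 (SE, adjusted p = 0.0251). Lpl, a further PPARG target (0.24, adjusted p = 0.688), Ucp2 (0.07, adjusted p = 0.896) and Klb (0.01, adjusted p = 0.983) did not pass. Without the 4 acute phase livers 1 of the 15 members passed, against 0.375% of all genes in that fit, while the median of the list was 0.48.

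**Figure D2:**
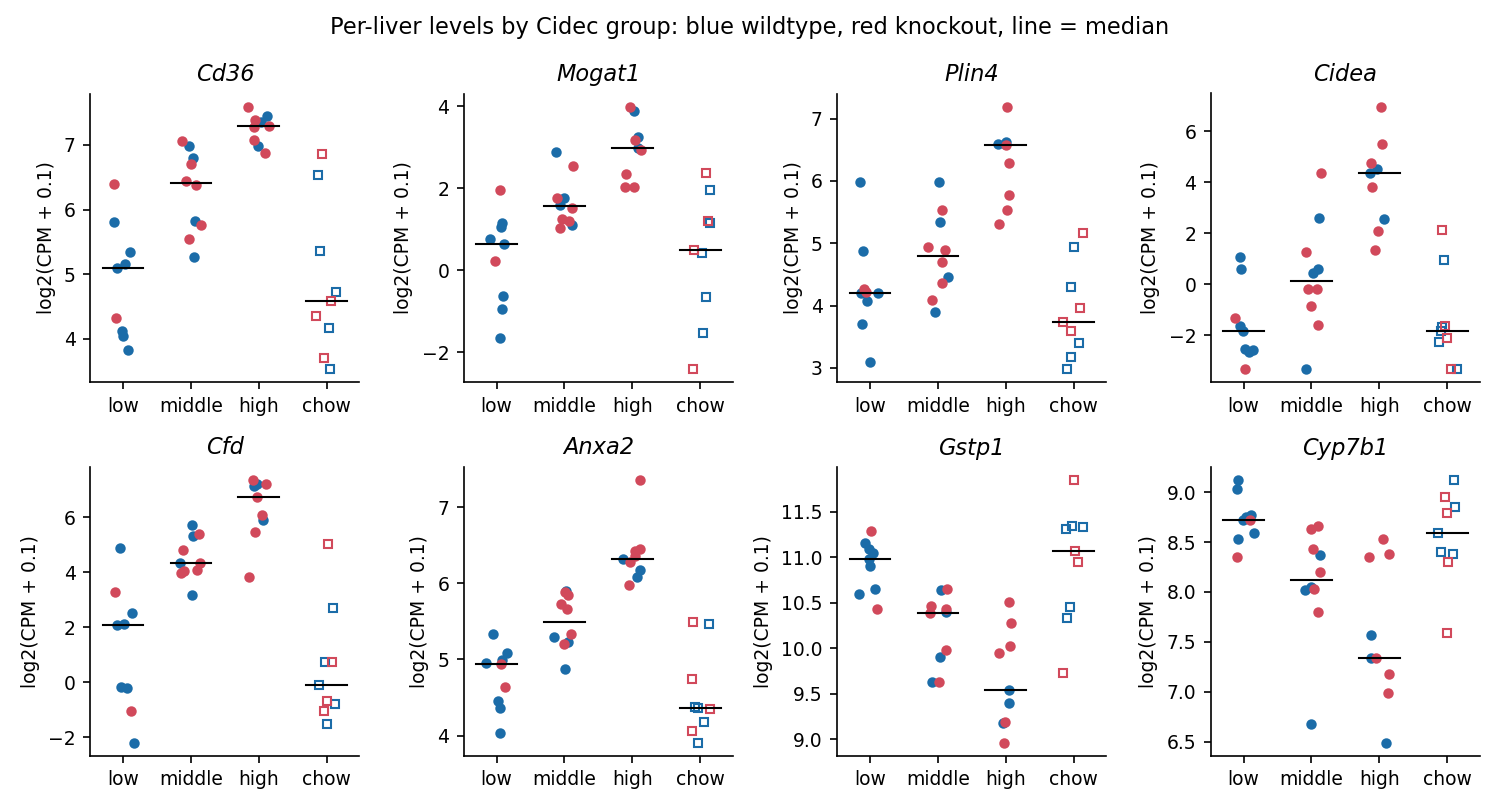
Level of 8 genes in each liver on a log2(CPM + 0.1) scale, for the 9 low, 10 middle and 9 high Cidec livers (filled, by genotype) and the 9 chow livers (open squares), with the median as a line. The middle livers lie between the low and high livers in median for all 8 genes, and the high and low livers do not overlap for Cd36, Mogat1, Cidea and Anxa2.

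Because Cidec and Cd36 are both listed among PPARG targets and moved together (Spearman rho 0.93 over the 28 livers), a promoter of each is shown, as the 250 bases before a RefSeq transcription start in GRCm38.p6. RefSeq lists a second Cidec start, whose window at chr6:113434765-113435014 is not printed and held neither motif described below. Both genes are on the minus strand, Cidec at chr6:113435761-113436010 and Cd36 at chr5:17835897-17836146, and the sequences read 5′ to 3′ on that strand.
Cidec: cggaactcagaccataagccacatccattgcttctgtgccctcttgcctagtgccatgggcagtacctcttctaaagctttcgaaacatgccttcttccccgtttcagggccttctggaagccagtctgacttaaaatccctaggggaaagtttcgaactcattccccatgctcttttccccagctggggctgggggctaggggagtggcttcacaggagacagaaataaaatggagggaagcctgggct
Cd36: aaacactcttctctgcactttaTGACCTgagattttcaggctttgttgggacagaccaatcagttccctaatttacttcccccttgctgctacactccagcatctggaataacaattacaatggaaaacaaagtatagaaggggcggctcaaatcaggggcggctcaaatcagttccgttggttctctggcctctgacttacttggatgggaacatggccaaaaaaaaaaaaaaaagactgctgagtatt
The capitals in Cd36 mark TGACCT, the reverse complement of AGGTCA, the core site of many nuclear receptors, which begins 228 bases before the start. PPARG binds with RXR to a direct repeat of such sites, searched for here on both strands as AGGNCA, 1 further base and AGGNCA, a pattern that can overlap the core site. It was in neither window. Of all 32851 RefSeq promoter windows of this length 111 (0.338%) held the repeat and 4607 the core site. Of the 234 windows of 159 genes that rose, 1 (0.427%) and 29 (12.4%) did. These are matches of letters within 250 bases and say nothing about binding.

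Most genes that build fatty acids and triglycerides had values above 0 but did not pass, in a test that 2.18% of all genes passed. Of 17 tested genes of fatty acid synthesis 1 rose, Elovl5, a fatty acid elongase, at 888 to 1799.9 CPM (median 1146) in the high and 299 to 992 CPM (median 546) in the low livers. It rose by 1.06 ± 0.25 (SE, adjusted p = 0.0324). Scd1, the stearoyl-CoA desaturase, was among the most abundant transcripts at 17802 to 41268 CPM (median 23005) and 7883 to 19075 CPM (median 10624), and its difference of 0.86 ± 0.23 (SE, adjusted p = 0.0505) fell just short of the threshold. Fasn, the fatty acid synthase, overlapped broadly, at 644 to 2695 CPM (median 1466) in the high and 696 to 1480.2 CPM (median 949) in the low livers. Its log2 fold change was 0.61, adjusted p = 0.307, and that of Srebf1, the lipogenic transcription factor, was 0.15, adjusted p = 0.628. The list had 16 of 17 values above 0 and a median of 0.48.

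Of 17 genes of triglyceride assembly 2 rose, against 2.18% of all genes passing. They were Mogat1 and Gpat3, an acyltransferase of fat cells (1.39 ± 0.34 (SE, adjusted p = 0.0410)). Without wildtype G, L, M and N none of the 17 genes of either list passed, against 0.375% of all genes in that fit. The enzymes of the final step did not pass in either fit: Dgat1 differed by 0.20, adjusted p = 0.0795 and Dgat2 by -0.09, adjusted p = 0.665. None of 18 genes of VLDL assembly and none of 24 of cholesterol synthesis and uptake passed, with medians of 0.15 and 0.26, and 22 of the 24 cholesterol genes had values above 0.

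Of 30 tested genes of fatty acid oxidation and ketone body synthesis 2 rose and none fell, against 2.18% of all genes passing, and 27 had values above 0, with a median of 0.36. Without wildtype G, L, M and N 1 of the 30 passed, against 0.375% of all genes in that fit. Acot2, a mitochondrial acyl-CoA thioesterase, was at 7.62 to 19.6 CPM (median 9.60) in the high and 0.831 to 5.92 CPM (median 3.07) in the low livers, without overlap, and rose by 1.74 ± 0.34 (SE, adjusted p = 0.0139). Cyp4a14, a microsomal fatty acid hydroxylase and target of PPARA, ranged from 5.94 to 249.5 CPM in the high and from 0.387 to 56.7 CPM in the low livers. Its log2 fold change of 2.76 ± 0.96 (SE, adjusted p = 0.126) did not pass, and the ranges overlapped. Cpt1a (0.36, adjusted p = 0.196), which admits fatty acids to mitochondrial oxidation, did not pass either.

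**Figure D3:**
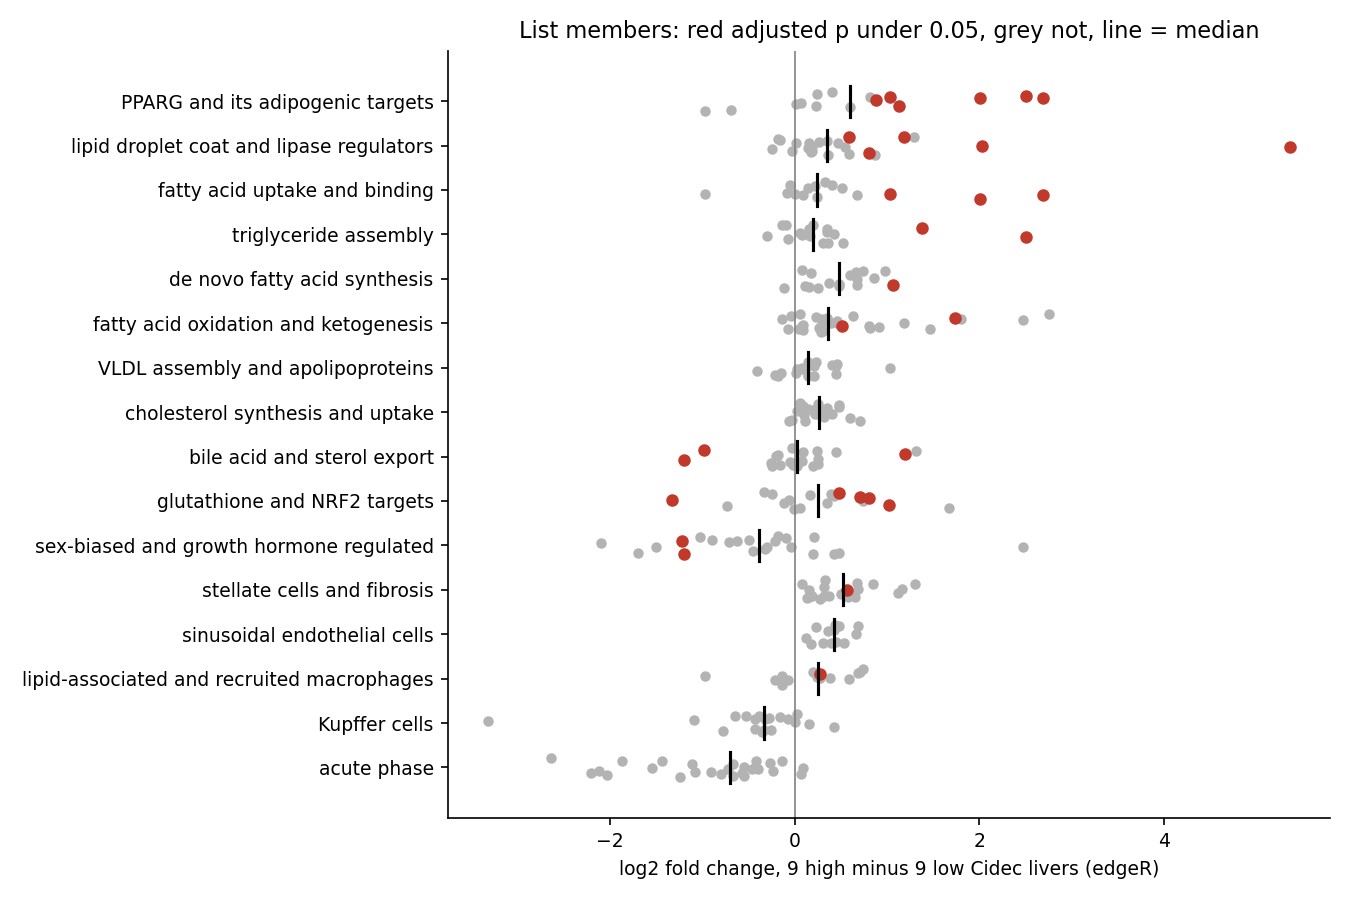
Log2 fold change (9 high minus 9 low Cidec livers, edgeR) of every tested member of 16 gene lists, with members at an adjusted p under 0.05 in red and the list median as a black line. Red points lie mostly in the PPARG, lipid droplet, uptake and glutathione lists, and the stellate and endothelial lists lie wholly to the right of 0 with 1 red point between them.

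Among the largest rises were genes that are not enzymes of lipid metabolism. Cfd, the complement factor D or adipsin made by fat cells, was at 14.2 to 163 CPM (median 106) in the high and 0.119 to 29.5 CPM (median 4.12) in the low livers and rose by 4.17 ± 0.80 (SE, adjusted p = 0.0153), with overlap at 1 high liver, knockout F at 14.2 CPM. It passed in all 18 fits without 1 liver. The other markers that define fat cells were almost absent: Adipoq reached 0.197 CPM at most in the high livers and was at 0 in all 9 low livers, Lep was at 0 in 27 of the 28 livers and Plin1 in 22. The summed level of the 6 defining markers was 15.1 to 164 CPM in the high and 0.178 to 29.6 CPM in the low livers, and nearly all of it was Cfd. Of the 6 tested members of the wider fat cell list, Cfd alone was called.

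Slc22a27, an organic anion transporter, was at 0.647 to 3.04 CPM (median 2.23) in the high and 0 to 0.483 CPM (median 0.147) in the low livers, without overlap, and rose by 3.70 ± 0.49 (SE, adjusted p = 0.00111). Its low livers all lay under the count filter, so it entered the test through the high livers alone. It was tested in 12 of the 18 fits without 1 liver. Gal3st1, which sulfates galactolipids, rose by 2.72 ± 0.41 (SE, adjusted p = 0.00250). Themis, best known from T cell development, was at 4.43 to 10.8 CPM (median 7.68) in the high and 0.0594 to 2.90 CPM (median 1.27) in the low livers, and rose by 2.59 ± 0.43 (SE, adjusted p = 0.00537) without overlap. Rufy4, an adaptor of autophagy, rose by 2.59 ± 0.36 (SE, adjusted p = 0.00111) and Osbpl3, an oxysterol binding protein relative, by 2.53 ± 0.49 (SE, adjusted p = 0.0147). Raet1d, a ligand of the NKG2D receptor, rose by 2.43 ± 0.51 (SE, adjusted p = 0.0216), with the reservation that it has near-identical copies between which reads may be split. The low medians of Gal3st1 (0.432 CPM), Rufy4 (0.504 CPM) and Raet1d (0.534 CPM) also lay under the count filter, so their entry into the test rested on the high livers. Slc22a27, Themis and Rufy4 also passed without the 4 acute phase livers, each at an adjusted p of 0.0115. For Slc22a27 and Rufy4 that pass is no separate support, since the high livers brought them into the test.

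The transcripts that followed Cidec most closely were not droplet genes. By Spearman's rho over the 28 livers, as a description, the closest was Anxa2 (0.95), then Cd36 (0.93), Lgals1 (0.92), Tmem98 (0.90), Themis (0.90), 2010003K11Rik (0.89), Anxa5 (0.88) and Limk1 (0.88). The 28 values share the same libraries with Cidec. Anxa2 and Anxa5 are calcium-dependent membrane binding proteins, Lgals1 is a galectin and Limk1 a kinase of the actin cytoskeleton.

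Anxa2 was at 62.8 to 164 CPM (median 80.1) in the high and 16.3 to 40.3 CPM (median 30.7) in the low livers. The groups did not overlap, and the rise was 1.53 ± 0.19 (SE, adjusted p = 9.70e-04). Knockout F lay far above the other high livers, and without the 4 acute phase livers the value was 1.40 (adjusted p = 0.0115). Lgals1 was at 59.4 to 121 CPM (median 85.0) against 13.4 to 46.7 CPM (median 23.7) and rose by 1.78 ± 0.23 (SE, adjusted p = 0.00111). Anxa5 rose by 0.99 ± 0.14 (SE, adjusted p = 0.00153), Tmem98 by 1.01 ± 0.15 (SE, adjusted p = 0.00179) and Limk1 by 1.01 ± 0.16 (SE, adjusted p = 0.00359), and for all 8 the high livers lay above every low liver. Treh, the trehalase (1.20 ± 0.15 (SE, adjusted p = 9.70e-04)), and Tceal8 (1.48 ± 0.19 (SE, adjusted p = 0.00111)), 2 further genes without overlap, were picked after their values were seen.

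Of the genes that fell, Wif1, a secreted inhibitor of WNT signalling, was at 0.223 to 2.04 CPM (median 0.369) in the high and 1.26 to 9.20 CPM (median 3.07) in the low livers with a log2 fold change of -2.83 ± 0.51 (SE, adjusted p = 0.00805). Acsm2, a medium-chain acyl-CoA synthetase, was at 0.371 to 1.61 CPM (median 0.558) against 0.905 to 6.41 CPM (median 4.05) (-2.22 ± 0.38 (SE, adjusted p = 0.00462)). Fam222a was at 0.811 to 4.73 CPM (median 2.07) against 4.98 to 17.6 CPM (median 9.71) and Irx1, a homeobox gene, at 0.338 to 1.13 CPM (median 0.811) against 1.36 to 5.08 CPM (median 2.42). Neither of these last 2 overlapped between groups, with log2 fold changes of -2.10 ± 0.35 (SE, adjusted p = 0.00564) and -1.57 ± 0.31 (SE, adjusted p = 0.0127). Wif1, Acsm2 and Fam222a also passed without the 4 acute phase livers. The high medians of Wif1 and Acsm2 lay under the count filter, so their entry into the test rested on the low livers. R3hdml (-1.64 ± 0.40 (SE, adjusted p = 0.0372)), Ptgds, a prostaglandin D synthase (-1.63 ± 0.39 (SE, adjusted p = 0.0361)), Nucb2 (-1.38 ± 0.35 (SE, adjusted p = 0.0478)) and Fmn2 (-1.34 ± 0.31 (SE, adjusted p = 0.0310)) fell as well, each called in 5 to 12 of the 18 fits without 1 liver.

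The fall also touched genes that are higher in male than in female mouse liver. Mup16 and Mup12, major urinary proteins whose copies are so alike that reads may be split among them, had log2 fold changes of -2.66 ± 0.66 (SE, adjusted p = 0.0473) and -1.38 ± 0.35 (SE, adjusted p = 0.0491), and each passed in 3 of the 18 fits. Of 22 tested genes of the list of sex-biased and growth hormone regulated genes 2 fell, none rose and 17 had values under 0, with a median of -0.39, while 0.705% of all genes fell. Without knockout F 6 of 23 fell and 1 rose, against 3.50% of all genes passing. Without wildtype G, L, M and N none of 23 passed, against 0.375% of all genes. C8b, a component of the terminal complement complex, was at 73.9 to 197 CPM (median 162) in the high and 178 to 507 CPM (median 321) in the low livers (-1.22 ± 0.25 (SE, adjusted p = 0.0156)). Cyp7b1, the oxysterol hydroxylase of the alternative bile acid pathway, was at 90.0 to 371 CPM (median 162) against 325 to 556 CPM (median 421.8), with overlap (-1.20 ± 0.29 (SE, adjusted p = 0.0384)). Mup1 (-1.70, adjusted p = 0.0557) and Serpina1e (-2.10, adjusted p = 0.0522) did not pass.

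In the bile acid list 1 of 21 genes rose and 2 fell, against 2.18% of all genes passing. None passed without wildtype G, L, M and N, against 0.375% of all genes in that fit. Cyp2c70, which makes the muricholic acids of rodents, was at 249 to 578 CPM (median 368) in the high and 588 to 1028 CPM (median 673) in the low livers, without overlap (-0.98 ± 0.20 (SE, adjusted p = 0.0139)). The other fall was Cyp7b1, and the rise was Slco1a4, an organic anion uptake carrier (1.20 ± 0.28 (SE, adjusted p = 0.0321)). Abcc3, an export pump, did not pass (1.32, adjusted p = 0.0510).

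Of 18 tested glutathione and NRF2 genes 4 rose and 1 fell, against 2.18% of all genes passing. Without wildtype G, L, M and N 1 rose and 1 fell, against 0.375% of all genes passing in that fit. Gstp1, a glutathione transferase that is higher in male liver, was at 499.9 to 1458 CPM (median 745) in the high and 1384 to 2497 CPM (median 2023) in the low livers, with slight overlap (-1.33 ± 0.21 (SE, adjusted p = 0.00359)). Nfe2l2, which encodes NRF2, rose by 0.70 ± 0.14 (SE, adjusted p = 0.0143) and Gpx4, the peroxidase that reduces lipid peroxides, by 0.49 ± 0.09 (SE, adjusted p = 0.0103). Gstm1 (0.81 ± 0.21 (SE, adjusted p = 0.0478)) and Gstm2 (1.02 ± 0.23 (SE, adjusted p = 0.0310)) rose too. Gstp1, Gpx4 and the Gstm genes have close copies or pseudogenes, so their counts carry the uncertainty of how shared reads were assigned. The classical NRF2 targets Nqo1 (0.75, adjusted p = 0.118), Gclc (0.16, adjusted p = 0.573) and Srxn1 (0.40, adjusted p = 0.196) did not pass. Cela1, the 1 tested gene of the exocrine pancreas list, fell without overlap (-0.85 ± 0.14 (SE, adjusted p = 0.00359)), while Pnlip and Cpa1, which define pancreas, were at 0 in all 9 high livers and in 7 and 8 of the 9 low livers.

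For the lists of other cell types described here the counts are to be read against the 2.18% of all genes that passed. All 22 tested genes of the stellate cell and fibrosis list had values above 0 (median 0.53), and 1, the fibrillar collagen Col5a1, rose past the threshold (0.57 ± 0.14 (SE, adjusted p = 0.0350)). Col1a1 was at 26.8 to 168 CPM (median 38.9) in the high and 9.72 to 34.5 CPM (median 20.3) in the low livers and its difference of 1.16 ± 0.38 (SE, adjusted p = 0.106) did not pass. The top value, 168 CPM, was knockout F. Without knockout F 3 of the 22 genes rose, against 3.50% of all genes, and the median was 0.42. All 13 genes of sinusoidal endothelial cells likewise had values above 0 (median 0.42) and none passed. Mean list levels overlapped between the groups for both cell types.

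Among macrophages, of 14 tested genes of lipid-associated and recruited macrophages 1 rose, the lysosomal protease Ctsd (0.27 ± 0.07 (SE, adjusted p = 0.0381)), which other cells express too. Trem2, their defining receptor (-0.07, adjusted p = 0.963), and Spp1 (0.38, adjusted p = 0.0938) did not pass. Of the 14 genes 9 had values above 0 (median 0.26), and the median was 0.18 without knockout F. In the fit without wildtype G, L, M and N 17 of 18 tested members had values above 0 (median 0.37) and none passed. None of 19 Kupffer cell genes passed, and 15 had values under 0 (median -0.33). Without wildtype G, L, M and N the median was -0.09, and with the acute phase covariate -0.08. Clec4f, the Kupffer cell lectin, was at 52.7 to 173 CPM (median 90.5) in the high and 66.9 to 182 CPM (median 123) in the low livers (-0.52, adjusted p = 0.216). The list includes Cd163 itself, whose level is set by genotype.

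The acute phase list holds plasma proteins that hepatocytes release in inflammation. None of its 26 genes passed in the 18 livers, while 24 had values under 0 and the median was -0.70. Saa1, the serum amyloid, was at 71.7 to 627 CPM (median 338) in the high and 48.5 to 8831 CPM (median 1120.4) in the low livers, so that the low group held both the lowest and the highest values. The difference was -2.12 ± 1.13 (SE, adjusted p = 0.312) on the log2 scale. In the low group the mean list level was 8.75 to 10.0 in wildtype G, L, M and N and 6.83 to 7.98 in the other 5 livers, which matched the 6.99 to 7.89 of the high group. Without those 4 livers the median of the list was -0.03. The part of the acute phase in the genes called above was not tested beyond the fits without these livers and with the covariate.

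**Figure D4:**
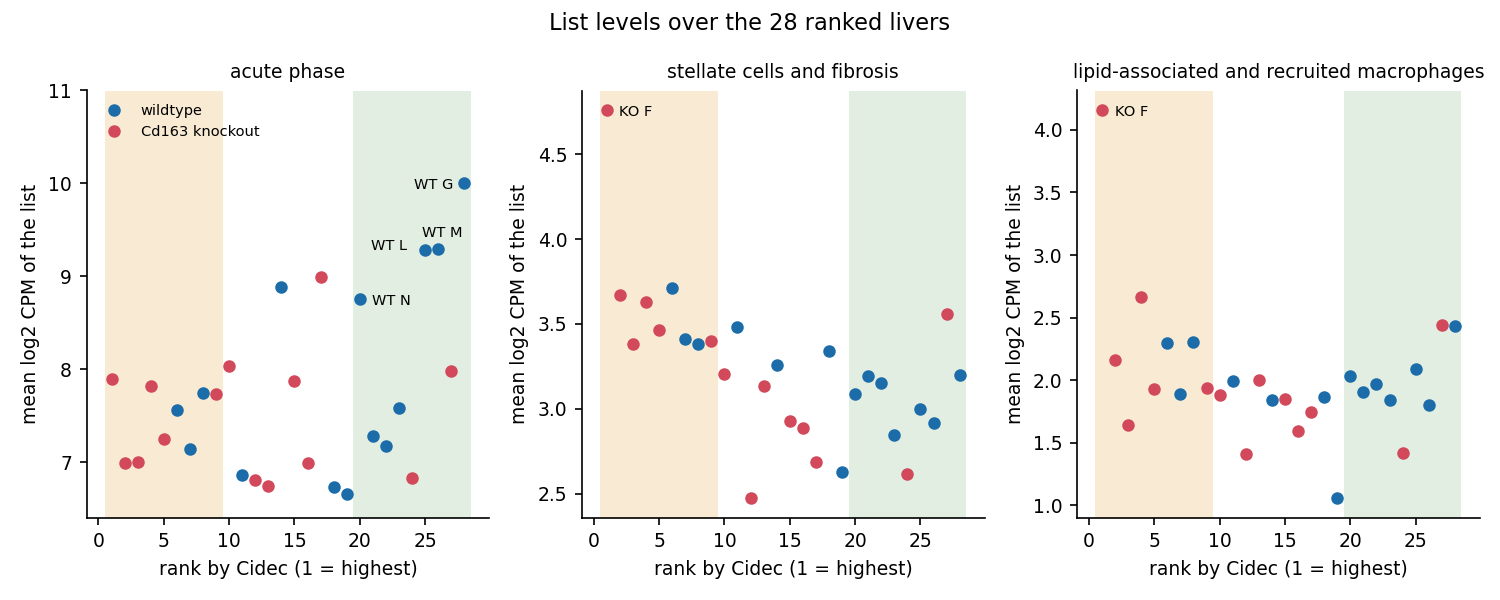
Mean log2 CPM of 3 gene lists in each of the 28 livers, ordered by Cidec rank (1 = highest), with the 9 high livers in the orange band, the 9 low livers in the green band, and genotype by colour. Wildtype G, L, M and N stand above the other low livers in the acute phase list, and knockout F stands above all other livers in the stellate and macrophage lists.

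Against log2 Cidec over all 28 livers, without a split into groups, 1552 of 14708 genes (10.6%) had a slope past the threshold, 909 positive (6.18%) and 643 negative (4.37%). Of the 303 genes 299 were among them with the same sign. This fit shares its livers with the other and is a second view of the same association. In this fit 15 of 30 genes of fatty acid oxidation, 12 of 22 stellate cell genes and 7 of 13 endothelial genes had a positive slope past the threshold. A negative slope passed for 12 of 26 acute phase genes. Of 23 sex-biased genes 13 had a negative and 3 a positive slope past the threshold. Positive slopes also passed for 6 of 17 genes of lipid-associated and recruited macrophages, 5 of 17 of fatty acid synthesis and 4 of 17 of triglyceride assembly. Knockout F had the highest Cidec of the 28 livers and the highest mean level for the stellate, endothelial and macrophage lists. The fit over 28 livers was not repeated without it, so its part in these counts was not tested. For Cd36 the log2 level rose by 0.76 ± 0.09 (SE, adjusted p = 9.64e-06) per doubling of Cidec, for Anxa2 by 0.55 ± 0.04 (SE, adjusted p = 2.03e-11) and for Cidea by 2.21 ± 0.28 (SE, adjusted p = 2.03e-05).

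Within each genotype the slope was fitted apart. Over the 14 wildtype livers 1925 of 14355 genes (13.4%) had a slope past the threshold and over the 14 knockout livers 21 of 14376 (0.146%). The difference between the slopes, tested as an interaction, passed for 0 of 14914 genes with edgeR and 0 with limma voom, although 9.70% had an unadjusted p under 0.05 (1446 genes), so a difference between genotypes is not shown for any gene. All 303 genes had slopes of the same sign in both genotypes, a description, since these slopes rest largely on the livers that chose the genes. The slope was steeper in wildtype livers for 267 of the 303, with a median size of 0.32 against 0.20. This too is a description of genes chosen on these livers, and the like share over all tested genes is not given. Cidea had slopes of 2.23 in wildtype and 2.18 in knockout livers, Anxa2 of 0.61 and 0.50, and Cd36 of 1.09 and 0.51. Of the acute phase livers, wildtype G, M and L had the lowest Cidec of the wildtype set (4.27, 7.34 and 7.99 CPM). Wildtype N, at 14.3 CPM, lay above wildtype D, I and E. Wildtype F, of the middle group at 21.7 CPM, also had a high acute phase level (8.88). The part of these livers in the slopes was not tested within a genotype.

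**Figure D5:**
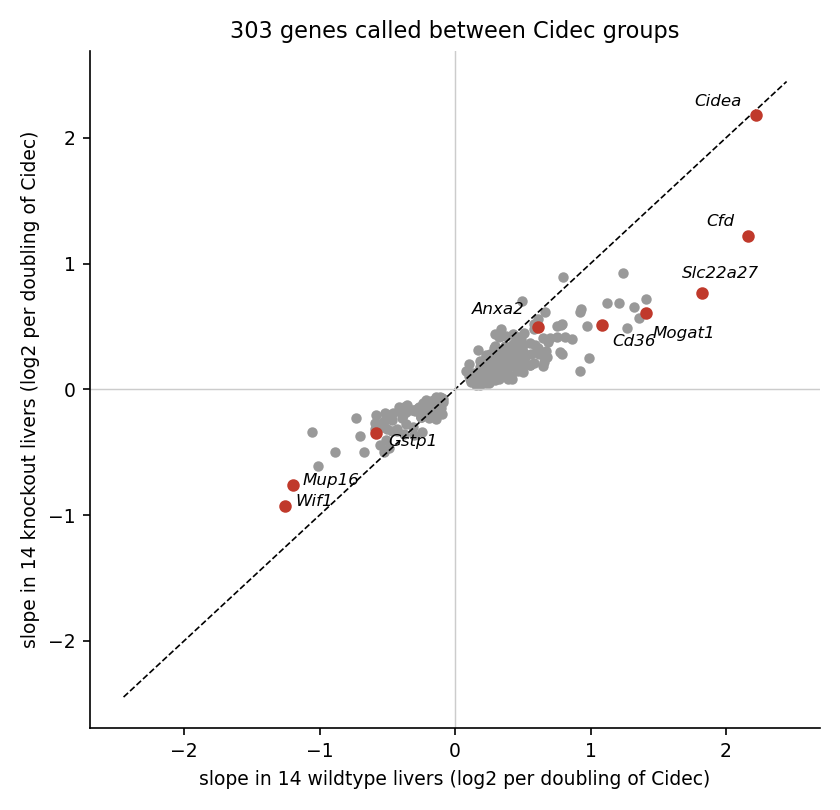
Slope on Cidec (log2 change per doubling of Cidec CPM) in the 14 wildtype livers (x axis) and in the 14 knockout livers (y axis) for the 303 genes called between the high and low groups, with equal slopes as a dashed line. Most points lie on the wildtype side of the line, 267 of 303, while Cidea and Anxa2 lie close to it. The genes were chosen largely on these livers, so the plot is a description.

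The called genes were also set beside the chow livers, as a description. They were chosen for a difference between the groups, and the like shares over all tested genes were not computed. The counts therefore do not measure how near either group was to chow. Of the 205 genes that rose, the low group's median lay within the range of the 9 chow livers for 165 and the high group's median above it for 97. Of the 98 that fell, the low median lay within the chow range for 83 and the high median below it for 35. Without wildtype chow A and knockout chow D, the chow libraries that stood with the Western diet, the high median lay beyond the range for 129 and 48 genes. Cd36 had a median of 23.9 CPM on chow, 34.0 in the low, 85.2 in the middle and 156 CPM in the high livers, and Cidea one of 0.184, 0.181, 1.01 and 20.3 CPM. Gstp1 ran the other way, at 2148, 2023, 1343 and 745 CPM. These levels were not tested between the diets.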

How the data were processed

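Total RNA of mouse liver was sequenced in pairs on a NovaSeq instrument after NEBNext Ultra library preparation, per the labels' protocols. The values deposited are raw, whole-number counts for each gene, which the authors made with STAR 2.7.8a on GRCm39 and featureCounts 2.0, with FastQC and MultiQC, per the submitters' processing notes. The annotation release and strand setting are not given in the sources used here. The 55416 genes were named from an annotation of GRCm38 (52083 matched, 99.4% of counts), without coordinates. Libraries of the 28 livers held 8578865 to 30438808 counts.

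Levels are CPM on raw column sums. Fold changes come from edgeR 4.0.16 in R 4.3.3 (filterByExpr with a minimum count of 10 and a total of 15, TMM, glmQLFit with robust estimation, genotype as covariate), adjusted by Benjamini-Hochberg over all genes except Cidec at 0.05. Between high and low livers the filter used the Cidec groups, so a gene could enter the test through only the group where it was high. The SE is the one implied by the F statistic. Slopes use log2 Cidec CPM. List means are log2 CPM with a prior count of 2. Permutation tests used scipy. Alternatives were RLE scaling, DESeq2 1.42.0, limma 3.58.1 voom, no filter, other covariates and left-out livers. The pipeline was tested on simulated data. Replicates were separate mice, per the labels' protocols.

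The ranking, its groups and the 32 gene lists (583 genes) were chosen with earlier results of these data known. Named genes were the 10 largest rises and falls among called genes with a mean of at least 1 CPM, a symbol and the same slope sign in both genotypes, the 4 of smallest p in lists with 3 or more called, the 8 closest to Cidec by Spearman's rho, and members of the lipid droplet, PPARG and fat cell lists. Further genes were named as members of the lists, after their values were seen. Values of single genes in the oxidation list are in part not reported here.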

Additional observations from a re-analysis of the deposited data

Results flagged for a closer look

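In 84 groups of 4 to 9 libraries the highest or lowest value was compared with its nearest neighbour, and 8 lay farther off than Dixon's 95% criterion allows. Chance alone flags about 1 in 20 groups. Knockout Western F stood above the other high Cidec livers for Anxa2 (163.6 CPM), Anxa5 (359.2 CPM) and the library total (30438808 counts). Both annexins passed without it. Knockout Western D stood below the other low livers for Acsm2 (0.905 CPM) and Nucb2 (3.56 CPM). Wildtype Western G was the lowest of the low livers for Slco1a4 (1.96 CPM), and wildtype Western H the lowest of the high livers for R3hdml (0.0615 CPM). Among the 4 knockout chow livers, the library labelled D had 29.7 CPM of Cidec, against 7.10 CPM or less in the other 3.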

How the results depend on the processing

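Between high and low Cidec livers 303 genes (2.18%) passed. With RLE scaling it was 328, without a filter on low counts 262 (0.81%, of 32348), with library number as a covariate 259, and with Cidec ranked on TMM-scaled CPM again 303. DESeq2 called 910 (6.54%), limma voom 1289 (9.27%), the fit without the genotype covariate 1005 (7.23%) and that over 28 livers 1552 (10.6%). With 1 liver left out the share ran from 0.599% to 4.80%. After seeing the data, fits were added without wildtype G, L, M and N (54, 0.375%), without L and M (96, 0.677%) and with the acute phase covariate (185, 1.33%). A fit with the replicate letter as a replicate block, on 3 residual degrees of freedom, called 232 rises and 177 falls (2.94%), and 128 genes were shared. Over 28 livers, where 1552 genes passed, the share of tested genes that passed was 2.57% with the replicate block, 0.146% (21 genes) in knockout livers alone and 4.66% (694) without wildtype F, G, L, M and N. Knockout E, whose acute phase level was also high, stayed in that last fit. The 6 other settings gave 7.42% to 13.4%. The letters did not pair the mice: over 13 shared letters the correlation of deviations ran from -0.22 to 0.35, and 2 letters matched best with their own. The difference in Cidec between genotypes stayed above a p of 0.05 in both alternatives (0.0706 and 0.0681), as did that in library total (0.0625). Among the 50 followed genes Saa1 alone changed sign, to 0.22 with the acute phase covariate, which is built from its list. Genes under about 1 CPM carry wide counting error at these depths. The cause of these shifts was not tested.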

Other observations

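Genes outside the lists above that were called between the high and the low Cidec livers were read, and the 20 named in this and the next paragraph were chosen after their values were seen, so they stand for no group. All 20 passed without knockout F, 17 with the acute phase covariate and 5 without wildtype G, L, M and N (Gpihbp1, Egfl7, Ccn2, Avpr1a and Stard13), and each kept its sign. Gpihbp1, which carries lipoprotein lipase across the capillary wall, was at 16.9 to 32.8 CPM (median 22.3) in the high and 8.91 to 22.5 CPM (median 13.0) in the low livers and rose by 0.78 ± 0.16 (SE, adjusted p = 0.0170) on the log2 scale in edgeR's quasi-likelihood test. Of other genes known from endothelial cells, Clec14a rose by 0.87 ± 0.17 (SE, adjusted p = 0.0139), Robo4 by 0.68 ± 0.15 (SE, adjusted p = 0.0251), Egfl7 by 0.60 ± 0.13 (SE, adjusted p = 0.0248) and Esm1 by 1.55 ± 0.37 (SE, adjusted p = 0.0324). The transcription factor Erg rose by 0.54 ± 0.13 (SE, adjusted p = 0.0381) and the receptor Notch4 by 0.65 ± 0.16 (SE, adjusted p = 0.0410). In the fixed list of sinusoidal endothelial genes none of 13 passed. Knockout F was the highest of the 28 livers for Esm1 and Eln. Among genes of the extracellular matrix, Fbln2 rose by 1.42 ± 0.26 (SE, adjusted p = 0.00948), Eln, which encodes elastin, by 0.98 ± 0.20 (SE, adjusted p = 0.0147) without overlap, and Ccn2, a target of TGF-beta and YAP, by 1.55 ± 0.27 (SE, adjusted p = 0.00762). Lama3 fell (-0.91 ± 0.19 (SE, adjusted p = 0.0156)) while Lamb3, another laminin chain, rose (1.02 ± 0.24 (SE, adjusted p = 0.0314)).

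Among genes of complement and clotting, C9 (-0.90 ± 0.22 (SE, adjusted p = 0.0411)), Hc, which encodes complement C5 (-0.73 ± 0.19 (SE, adjusted p = 0.0453)), C2 (-0.67 ± 0.15 (SE, adjusted p = 0.0248)) and the clotting factor F11 (-0.60 ± 0.13 (SE, adjusted p = 0.0225)) fell, whereas Mbl2, a mannose binding lectin, rose (0.54 ± 0.14 (SE, adjusted p = 0.0421)) as Cfd did. C9, Hc and C2 had their highest value in wildtype G, one of the acute phase livers, and none of the 3 passed without wildtype G, L, M and N (adjusted p = 0.135, 0.173 and 0.132). Mfsd2a, which takes up lysophosphatidylcholine, was at 62.1 to 144 CPM (median 114) against 21.4 to 67.1 CPM (median 34.4) and rose by 1.42 ± 0.26 (SE, adjusted p = 0.0116). Avpr1a, the vasopressin receptor, fell without overlap (-0.78 ± 0.11 (SE, adjusted p = 0.00133)), as did Stard13 (-0.48 ± 0.07 (SE, adjusted p = 0.00111)).

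Knockout Western F had a profile of its own within the high group. Gpnmb was at 24.5 CPM there and at 1.11 CPM or less in the other 27 livers, and Mmp12 at 18.5 against at most 1.30 CPM. Both are genes of lipid-laden macrophages. Itgax was at 13.6 CPM against at most 1.89 CPM, Trem2 at 13.4 against at most 5.42 CPM, Col1a1 at 168 against at most 57.1 CPM and Timp1 at 2.99 against at most 0.492 CPM. In the same liver Cidea ranked 11th and Cfd 19th of the 28, at 2.46 and 14.2 CPM. This is 1 liver, and the reason for its profile was not tested.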
